A study of Homo sapiens with 2 samples.

Results

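Interferon-stimulated genes were followed in cells of MDA-MB-453, a widely used line from a human breast cancer that the labels call triple-negative, and were taken as the rows of the deposited count matrix that a list of 35 gene symbols names. The matrix held 33 of them among 16251 genes, and IFITM1 and XAF1 were not analysed here. Wild-type cells in DMEM with fetal bovine serum received water as vehicle in 1 culture, or IL1β and TNFα at 10 ng/ml in the other, for 24 hours by the labels and methods (a figure legend of the study gives a longer time), and each culture gave 1 droplet library of transcript 3′ ends counted with unique molecular identifiers (UMIs). The vehicle library held 2822 cells and 58587996 UMIs, the IL1β + TNFα library 3163 cells and 69592446 UMIs, with medians of 20249 and 21508 UMIs per cell, and 8 cell barcodes occurred in both. With 1 library per condition no difference has a replicate check, no test was made, and every interval given is an exact 95% interval for counting error alone. Differences between cells within a library are likewise descriptions, since cells of 1 culture are not replicates.

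Interferons bind receptors on the cell surface and start JAK kinases, which phosphorylate STAT proteins. STAT2 and IRF9 are parts of a complex that binds the interferon-stimulated response element (ISRE) in promoters, whereas pairs of STAT proteins bind the gamma-activated sequence (GAS). The genes switched on sense viral RNA, block its translation, degrade it, or feed the response back onto itself. IL1β and TNFα act through other receptors, which activate NF-κB, and IRF1 is a well-known target of both kinds of pathway.

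The label of the cells was checked against 12 markers, of which 10 were in the matrix, each at 129 counts per 1000000 UMIs of the library (CPM) or more in both libraries. ESR1 and PGR, the other markers in that list, were not analysed here. The phase calls deposited with the cells put 36.6% of vehicle cells and 88.5% of IL1β + TNFα cells in G1, so the comparison is also given for G1 cells alone. The 21 genes of interferon ligands that were looked for, IFNB1 and IFNG among them, were not analysed here.

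The promoters of 6 genes are shown because they mark the ends of the range of response among genes that reached 20 CPM, 4 with the highest log2 ratios and ADAR and EIF2AK2 with the lowest. Those of ISG15, IFIT1 and IFIT3 were added after their values were seen, because much of their level rested on few cells. Each line gives the 250 bases before the annotated start on the strand of the gene, from RefSeq (GRCh38.p14), with capitals for each match to an ISRE core (GAAANNGAA) or a GAS motif (TTCNNNGAA) on either strand.
IFI6 (chr1:27672193-27672442, minus strand): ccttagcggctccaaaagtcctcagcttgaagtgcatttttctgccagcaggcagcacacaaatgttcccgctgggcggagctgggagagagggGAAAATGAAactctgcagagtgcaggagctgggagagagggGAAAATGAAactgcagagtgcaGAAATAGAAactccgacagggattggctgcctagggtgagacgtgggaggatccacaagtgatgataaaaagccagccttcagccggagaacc
ISG15 (chr1:1013247-1013496, plus strand): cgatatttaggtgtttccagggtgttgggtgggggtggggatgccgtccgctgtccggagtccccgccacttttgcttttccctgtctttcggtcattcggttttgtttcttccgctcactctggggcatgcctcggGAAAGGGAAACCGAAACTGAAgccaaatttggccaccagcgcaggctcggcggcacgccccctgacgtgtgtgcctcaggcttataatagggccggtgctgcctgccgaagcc
IFIT1 (chr10:89392373-89392622, plus strand): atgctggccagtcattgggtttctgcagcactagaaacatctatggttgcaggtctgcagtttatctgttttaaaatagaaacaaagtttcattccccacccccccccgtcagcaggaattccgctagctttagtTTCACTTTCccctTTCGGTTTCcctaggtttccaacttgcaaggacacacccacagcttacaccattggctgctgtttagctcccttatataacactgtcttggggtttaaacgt
IFIT3 (chr10:89327747-89327996, plus strand, the first of 2 entries): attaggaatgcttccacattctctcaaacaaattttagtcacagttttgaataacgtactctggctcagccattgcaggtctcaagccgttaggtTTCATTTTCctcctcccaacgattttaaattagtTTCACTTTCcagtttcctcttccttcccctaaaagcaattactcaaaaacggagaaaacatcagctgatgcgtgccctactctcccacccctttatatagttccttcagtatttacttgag
ISG20 (chr15:88638766-88639015, plus strand): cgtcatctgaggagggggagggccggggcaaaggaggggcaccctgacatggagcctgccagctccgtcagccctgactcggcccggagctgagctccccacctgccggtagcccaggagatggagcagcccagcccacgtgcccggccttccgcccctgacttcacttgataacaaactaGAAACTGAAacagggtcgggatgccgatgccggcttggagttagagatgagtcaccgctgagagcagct
IRF1 (chr5:132490774-132491023, minus strand): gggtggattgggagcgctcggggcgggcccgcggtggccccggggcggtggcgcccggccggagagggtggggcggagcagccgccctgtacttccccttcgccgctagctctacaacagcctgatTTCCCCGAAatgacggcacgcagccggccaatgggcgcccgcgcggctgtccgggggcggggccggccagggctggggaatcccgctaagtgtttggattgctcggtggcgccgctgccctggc
IRF9 (chr14:24161015-24161264, plus strand): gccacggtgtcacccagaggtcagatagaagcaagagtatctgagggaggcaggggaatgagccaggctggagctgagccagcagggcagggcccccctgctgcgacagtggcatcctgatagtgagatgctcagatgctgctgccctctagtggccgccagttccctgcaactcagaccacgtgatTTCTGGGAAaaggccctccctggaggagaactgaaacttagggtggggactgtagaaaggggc
ADAR (chr1:154627998-154628247, minus strand, the first of 3 entries): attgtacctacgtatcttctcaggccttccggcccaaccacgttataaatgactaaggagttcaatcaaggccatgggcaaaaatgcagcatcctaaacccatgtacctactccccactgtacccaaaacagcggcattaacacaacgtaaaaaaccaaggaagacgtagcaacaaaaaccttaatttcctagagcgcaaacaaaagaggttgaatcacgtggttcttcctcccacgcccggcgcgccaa
EIF2AK2 (chr2:37156981-37157230, minus strand): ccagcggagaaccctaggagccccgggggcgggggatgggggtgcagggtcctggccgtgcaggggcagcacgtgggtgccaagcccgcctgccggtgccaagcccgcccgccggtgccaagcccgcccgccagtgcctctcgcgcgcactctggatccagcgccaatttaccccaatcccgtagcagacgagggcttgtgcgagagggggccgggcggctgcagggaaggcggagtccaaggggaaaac

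IFI6 and ISG15 held 3 matches to the ISRE core each, IFIT1 and IFIT3 held 2 each and ISG20 held 1. The printed promoters of IRF1 and IRF9 held no ISRE core and 1 GAS match each, and those of ADAR and EIF2AK2 held neither. The EIF2AK2 stretch ended in gaaaac, which matches the start of an ISRE core, and bases past its end were not searched. EIF2AK2 is counted below as without an ISRE core, though a core across that end could not be seen. Promoter entries were found for 28 of the 33 genes, all but IFIT2, IFITM2, IRF2, IRF7 and PML. An ISRE core stood in a promoter of 15 of those 28 genes (53.6%), against 8.41% of 27305 genes and 6.88% of 35116 promoters, each searched over the same 250 bases. A GAS match stood in 8 of the 28 (28.6%), against 8.09% of all genes and 6.57% of all promoters. A κB-like motif (GGGNNTTTC), searched in the same way, stood in 4 of the 28 (14.3%), against 5.05% of all genes and 4.16% of all promoters. Only this pattern was searched, so κB sites of another form were not counted. The printed IRF1 stretch holds ggggaatccc, which the pattern does not match. Of 34 ISRE core matches over all promoter entries of these genes, 6 overlapped a GAS match and 0 overlapped the κB-like motif. Each entry was counted apart and those of IFI27 overlap, so a site there can be counted more than once. Genes with a promoter entry and at least 5 CPM in a library were set apart by this motif. At least 2-fold higher in the IL1β + TNFα library were 7 of 10 with an ISRE core and 5 of 9 without one. Over all genes at that limit the share was 4.29%. The 5 without a core, IRF1, IRF9, UBE2L6, DDX58 and DTX3L, passed the limit through the IL1β + TNFα library alone. So did IFI27, IFIH1 and IFIT1, which held a core. The 4 higher genes at 5 CPM or more under vehicle, ISG15, ISG20, BST2 and IFI6, each held a core. The median log2 ratio was 1.20 with the motif and 1.34 without it, and the ratios ran from 0.68 to 3.76 with it and from 0.06 to 3.84 without it. The ranges thus overlapped almost entirely, among genes admitted by a limit that either library could meet.

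A gene was counted as measured where it reached 5 CPM in either library, which 22 of the 33 did, and a gene was counted as higher or lower where it differed at least 2-fold with its interval on the same side. By that rule 12 of 22 were higher in the IL1β + TNFα library and 0 were lower. Over all 9192 measured genes 4.29% were higher and 7.48% were lower. Of the 12, 8 were under 5 CPM in the vehicle library and passed the limit through the other library alone. Among the 14 genes at 5 CPM or above under vehicle 4 were higher (ISG15, ISG20, BST2 and IFI6), against 2.48% of all such genes. The log2 ratio of CPM was above 0 for 22 of 22, with a median of 1.14, against a median of -0.20 over all measured genes. TMM scaling, which moves all ratios up by 0.18, counted 15 of the 22 as higher and 0 as lower, against 5.72% and 5.43% of all measured genes. It raised the share of higher among all called genes from 36.4% to 51.3%. Restricted to G1 cells, 12 of 22 were higher and 0 lower (4.44% and 4.43% of all), with a median of 1.17. The UMIs of all 33 genes summed to 686 CPM under vehicle and 1396 CPM in the IL1β + TNFα library.

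**Figure D1:**
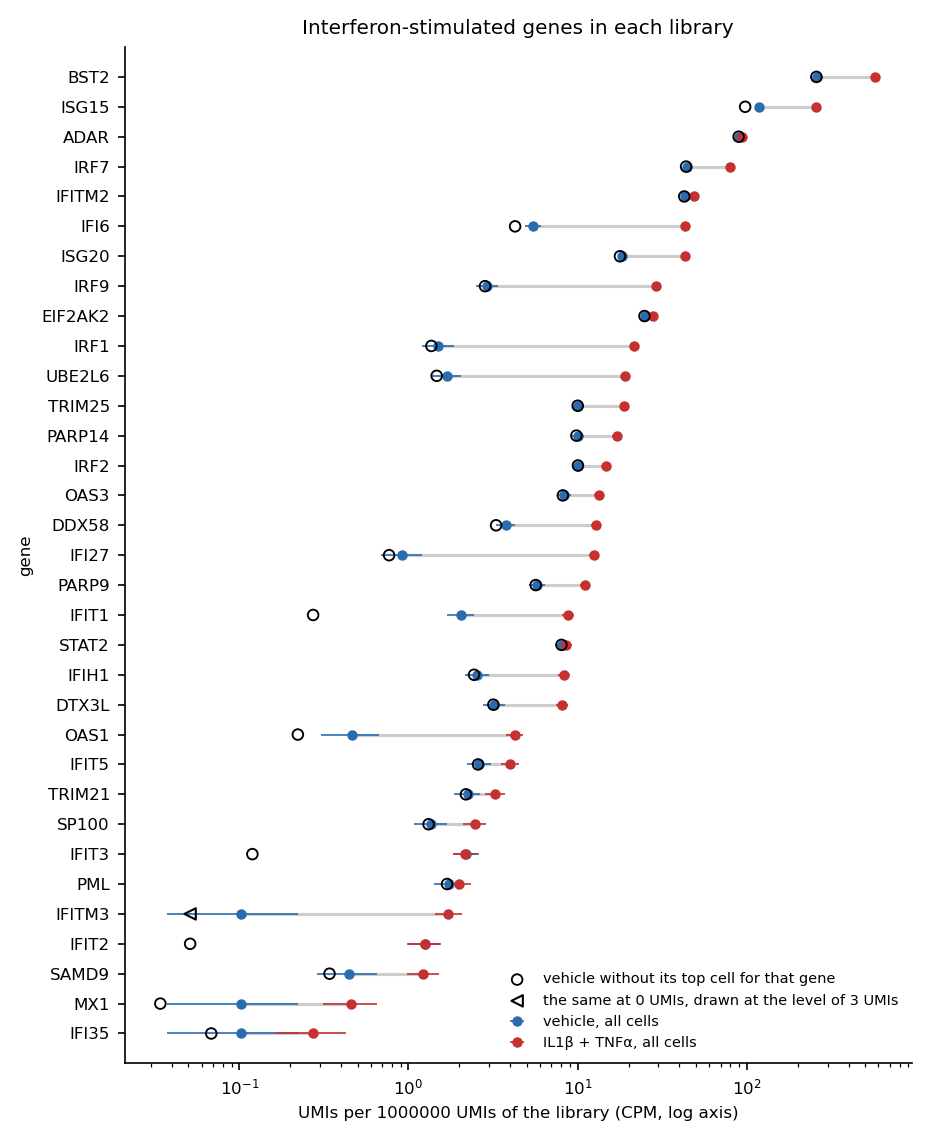
Level of each of the 33 genes in CPM on a log axis, for vehicle (blue) and IL1β + TNFα (red), with exact 95% Poisson intervals. Open circles give the vehicle level without the 1 cell that held most UMIs of that gene, and they stand far left of the blue points for IFIT1, IFIT2, IFIT3, OAS1 and MX1.

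Transcription factors of the interferon response were 5 measured genes, of which 2 were higher. IRF1, which binds the same kind of element as the STAT complex and is induced early, stood at 1.5 CPM (88 UMIs) under vehicle and 21.4 CPM (1492 UMIs) in the IL1β + TNFα library, a log2 ratio of 3.84 (3.52 to 4.16). IRF9, the DNA-binding part of the complex with STAT2, was at 2.92 CPM (171 UMIs) and 29.2 CPM (2030 UMIs), a log2 ratio of 3.32 (3.1 to 3.55). Its partner STAT2 was at 8.07 CPM under vehicle and 8.59 CPM in the IL1β + TNFα library, with a log2 ratio of 0.09 (-0.09 to 0.27) that spanned 0. The messages of these partners thus differed widely in their ratios. IRF7, which amplifies type I interferon induction, stood at 44.3 and 79.7 CPM (log2 ratio 0.85, 0.78 to 0.91), and IRF2, a repressor that competes with IRF1, at 10.1 and 14.7 CPM (0.54, 0.39 to 0.69).

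The genes of ISG15 conjugation were high in both libraries through ISG15 itself, a ubiquitin-like protein that is joined to other proteins and also secreted. ISG15 was at 119 CPM (6953 UMIs) under vehicle and 257 CPM (17867 UMIs) in the IL1β + TNFα library, a log2 ratio of 1.11 (1.07 to 1.15). UBE2L6, the enzyme that carries ISG15 to its targets, was at 1.69 CPM (99 UMIs) and 19.1 CPM (1329 UMIs), a log2 ratio of 3.5 (3.2 to 3.81). The conjugating enzyme therefore differed by a larger factor than the protein it conjugates. TRIM25, a ubiquitin ligase that acts on the RNA sensor RIG-I, was at 10.1 and 18.9 CPM (log2 ratio 0.91, 0.77 to 1.05). TRIM21, which binds antibodies inside cells, was under 5 CPM, at 2.24 and 3.25 CPM.

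Both sensors of viral RNA were higher. DDX58, which encodes RIG-I and is named RIGI in newer annotation, was at 3.76 CPM (220 UMIs) under vehicle and 12.8 CPM (892 UMIs) in the IL1β + TNFα library, a log2 ratio of 1.77 (1.56 to 1.99). IFIH1, which encodes the sensor MDA5 of long double-stranded RNA, was at 2.54 CPM (149 UMIs) and 8.31 CPM (578 UMIs), a log2 ratio of 1.71 (1.45 to 1.98). The genes that act on double-stranded RNA after it is sensed were the group with the smallest differences, with 0 of 3 measured higher. ADAR, which edits adenosine in such RNA, was at 89.6 and 93.4 CPM (log2 ratio 0.06, 0.01 to 0.11), and EIF2AK2, the kinase PKR that stops translation, at 24.95 and 27.9 CPM (0.16, 0.06 to 0.26). OAS3, which makes the messenger that activates RNase L, was at 8.31 and 13.3 CPM (0.68, 0.52 to 0.84). Its relative OAS1 was under 5 CPM in both libraries, with 27 UMIs under vehicle and 296 in the IL1β + TNFα library.

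Both measured small interferon-induced proteins were higher. IFI27, a small hydrophobic protein of mitochondria and the nuclear envelope, was at 0.922 CPM (54 UMIs) under vehicle and 12.5 CPM (870 UMIs) in the IL1β + TNFα library, a log2 ratio of 3.76 (3.36 to 4.19). IFI6, of the same family, was at 5.48 CPM (321 UMIs) and 43.4 CPM (3019 UMIs), a log2 ratio of 2.99 (2.82 to 3.16). IFI35 was near the floor, with 6 and 19 UMIs.

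Among genes that block virus entry and exit, BST2 (tetherin), which holds budding particles at the cell surface, had the most UMIs of all 33. It was at 258 CPM (15127 UMIs) under vehicle and 576 CPM (40099 UMIs) in the IL1β + TNFα library, a log2 ratio of 1.16 (1.13 to 1.19). IFITM2, which hinders fusion of viral and endosomal membranes, was at 42.8 and 48.5 CPM (0.18, 0.10 to 0.25), and IFITM3, its close relative, had 6 and 120 UMIs. Reads from the near-identical parts of IFITM genes can be lost or misplaced in counting, so their levels are uncertain. ISG20, an exonuclease that degrades RNA, was at 18.3 CPM (1075 UMIs) and 43.3 CPM (3015 UMIs), a log2 ratio of 1.24 (1.14 to 1.34). MX1, a GTPase that traps viral ribonucleoproteins, had 6 and 32 UMIs, and SAMD9, which acts on translation, 26 and 85 UMIs, both under 5 CPM.

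DTX3L and PARP9 form a ubiquitin ligase and lie head to head on chromosome 3 (GRCh38), with annotated starts 239 bases apart on opposite strands. They overlap there, and the counter assigns reads by strand. DTX3L was at 3.21 CPM (188 UMIs) under vehicle and 8.12 CPM (565 UMIs) in the IL1β + TNFα library (log2 ratio 1.34, 1.10 to 1.59). PARP9 was at 5.77 and 11.1 CPM (0.94, 0.75 to 1.13), and PARP14, an ADP-ribosyltransferase from the same locus, at 10.07 and 17.01 CPM (0.76, 0.61 to 0.90). The 3 thus differed in the same direction, and 1 of them by at least 2-fold. PML and SP100, which organize nuclear bodies, were under 5 CPM, at 1.74 and 1.98 CPM and at 1.37 and 2.46 CPM.

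The IFIT genes, whose proteins bind foreign RNA and which lie side by side on the long arm of chromosome 10 between 89283694 and 89421605 (GRCh38), looked discordant in the sums. IFIT1 was at 2.03 CPM (119 UMIs) under vehicle and 8.79 CPM (612 UMIs) in the IL1β + TNFα library, a log2 ratio of 2.11 (1.83 to 2.41). IFIT2 was at 1.25 CPM in both, with 73 and 87 UMIs (0.00, -0.46 to 0.47), and IFIT3 at 2.18 and 2.17 CPM, with 128 and 151 UMIs (-0.01, -0.36 to 0.34). IFIT5 was at 2.61 and 3.99 CPM. Counts per cell showed which cells these sums came from.

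A single vehicle cell held a UMI of 32 of the 33 genes, and no other vehicle cell held more than 13. This cell carried 121 of the 128 vehicle UMIs of IFIT3, 70 of the 73 of IFIT2 and 103 of the 119 of IFIT1. It also carried 14 of the 27 UMIs of OAS1, 4 of the 6 of MX1 and all 6 of IFITM3. Of ISG15 it held 1229 UMIs, or 17.7% of the library, where the next vehicle cell held 23. Together the 33 genes made up 7.49% of its UMIs, against 0.0686% over the vehicle library. BST2 stood at 29 UMIs in it, against a library median of 5, and ADAR at 9 UMIs against a median of 2.

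The same cell held other genes of the interferon response. Of a wider list of 79 such genes, 65 were in the matrix and 47 of these had a UMI in it. OASL, a relative of the OAS enzymes, had 119 of its 124 vehicle UMIs there, and RSAD2 (viperin), which makes a chain-ending nucleotide, 25 of 26. IFI44 had 12 UMIs in this cell and 0 in the other vehicle cells, and IFI44L 9 and 0. USP18, which removes ISG15 and damps the receptor, had 25 UMIs, and B2M, the light chain of class I molecules, had 220 against a library median of 11. The profile of the cell thus went beyond the 33 genes.

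Some cytokine genes, chosen after their values were seen, stood out in this cell too. CCL5 had 28 UMIs there and 17 in all other vehicle cells, CXCL8 had 14 and 2, and IL6 had 9 and 0. Of the 7 NF-κB reference genes NFKBIA had 60 UMIs against a library median of 1 and BIRC3 had 2, while RELB, NFKB2, TNFAIP3, SOD2 and ICAM1 had 0. TDO2, S100A8, S100A9, LTB, TNF and CCL2 stood at up to 327995 UMIs in the other cells of the IL1β + TNFα library. Each had 0 UMIs in this vehicle cell, which was also its vehicle library median. LTB and TNF had 0 UMIs in the other vehicle cells too. Of KRT17, a basal keratin, all other vehicle cells held 14 UMIs, 10 of them in 1 cell, and this cell held 52. All 10 markers of the line had a UMI there, though at uneven levels. KRT8 had 27 (median 5) and KRT18 22 (median 11), whereas GATA3 had 2 (median 12), KRT19 3 (median 12) and FGFR4 3 (median 8). It held 24724 UMIs from 4701 genes with 3.13% mitochondrial UMIs (library medians 20249, 4094.5 and 6.28%), was called S phase, lay in cluster 1, and had a barcode not seen in the other library. Whether it was a doublet or a cell of another origin was not tested, and no doublet caller was run.

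Without the cell that held most UMIs of a gene in each library, several vehicle levels were close to the floor of 3 UMIs, which is 0.0512 CPM in the vehicle. IFIT1 then stood at 0.273 CPM (16 UMIs) under vehicle and 7.16 CPM (498 UMIs) in the IL1β + TNFα library, and its log2 ratio went from 2.11 to 4.71 (4.0 to 5.53). IFIT3 stood at 0.120 CPM (7 UMIs) and 1.31 CPM (91 UMIs), and its log2 ratio went from -0.01 to 3.45 (2.35 to 4.81). For IFIT2, 3 and 65 UMIs were left, a log2 ratio of 4.19 with a wide interval (2.58 to 6.50). All 3 IFIT genes were thus higher in the IL1β + TNFα library once 1 cell per library was set aside. OAS1 had 13 and 285 UMIs left (log2 ratio 4.21, 3.41 to 5.13), and ISG15 went from 1.11 to 1.35 (1.31 to 1.40). IFITM3 had 0 vehicle UMIs left and was at least 27.8-fold higher, set against the floor of 3 UMIs over the vehicle library. The lower limit of its exact interval, which also counts the error of the other library, was 4.47 on the log2 scale.

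The count of higher genes hardly depended on that cell. Without the cell with the most members in each library 12 of 22 genes were still higher (4.28% of all measured genes), with a median log2 ratio of 1.22. Of 32 genes with a ratio 6 lay outside their interval over all cells, all with a larger ratio, namely IFIT1, IFIT2, IFIT3, OAS1, ISG15 and IFI6. IRF1, IRF9, UBE2L6 and BST2 had log2 ratios of 3.97, 3.34, 3.68 and 1.16.

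To compare cells at equal depth, each cell was thinned at random to 15000 UMIs, which left 2586 vehicle and 3033 IL1β + TNFα cells. A thinned vehicle cell held a UMI of a median of 5 of the 33 genes and a thinned IL1β + TNFα cell of 7. Before thinning the medians were 6 and 8. Cells with 10 or more of the genes made up 0.580% (0.325 to 0.955) of vehicle and 14.6% (13.4 to 15.9) of IL1β + TNFα cells. At 15 or more, a limit set after the counts were seen, there was 1 vehicle cell (0.0387%, 0.000979 to 0.215) and there were 56 IL1β + TNFα cells (1.85%, 1.40 to 2.39). Below the lone vehicle cell at 31 genes the next vehicle cell had 13, whereas the top IL1β + TNFα cell had 29 and the next 26. The medians thus differed by 2 genes, and the IL1β + TNFα library had in addition a tail of few cells.

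**Figure D2:**
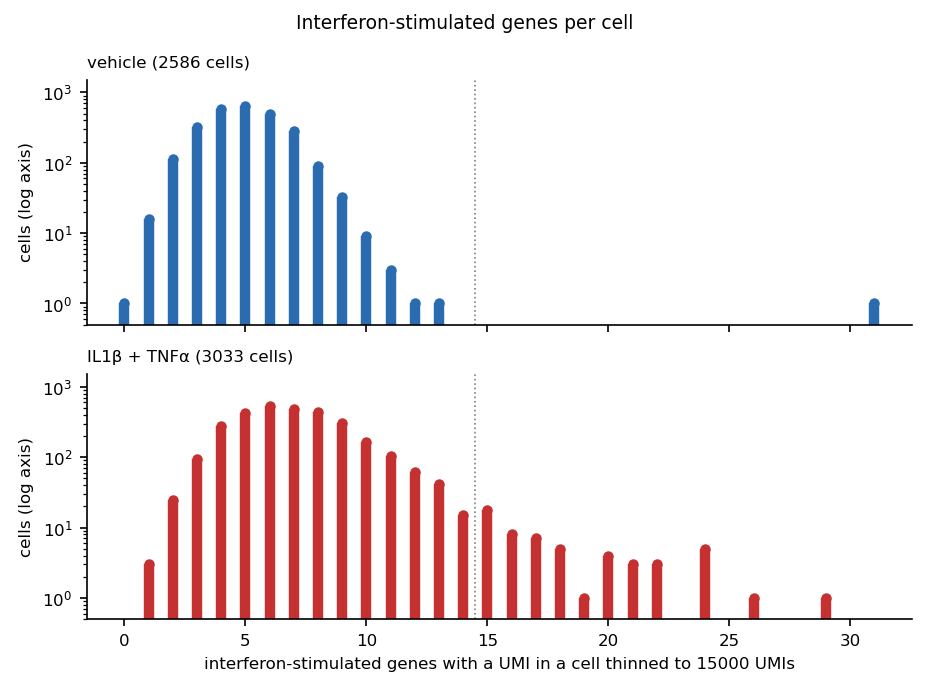
Number of cells (log axis) by how many of the 33 genes had a UMI after thinning to 15000 UMIs, for 2586 vehicle (top) and 3033 IL1β + TNFα cells (bottom). The dotted line marks 15 genes, past which lie 1 vehicle cell, at 31, and 56 IL1β + TNFα cells.

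How widely a gene was spread over cells differed from gene to gene. BST2 had a UMI in 96.7% (95.9 to 97.3) of thinned vehicle cells and in 99.9% (99.7 to 99.96) of IL1β + TNFα cells. In the same order the shares were 1.93% (1.44 to 2.54) and 24.7% (23.2 to 26.3) for IRF1. They were 3.87% (3.16 to 4.68) and 29.5% (27.9 to 31.2) for IRF9, and 1.93% (1.44 to 2.54) and 19.7% (18.3 to 21.1) for UBE2L6. Without thinning the shares were 2.76% and 32.8% for IRF1, 5.28% and 36.7% for IRF9 and 2.83% and 25.9% for UBE2L6. These 3 genes were therefore seen in many treated cells, and at this depth a cell with few transcripts can show none. Both libraries hold 1 cell line, so no cell type without the genes gave the share that free RNA makes.

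IFIT1 and IFI27 were met in few cells. IFIT1 had a UMI in 0.348% (0.159 to 0.660) of thinned vehicle and 4.15% (3.47 to 4.93) of IL1β + TNFα cells, and IFI27 in 1.20% (0.816 to 1.70) and 4.15% (3.47 to 4.93). In the IL1β + TNFα library the top 1% of cells for each gene held 73.4% of the IFIT1 UMIs, 70.2% of those of IFI27 and 78.3% of those of IFITM3. The same share was 28.5% for IFI6, 26.1% for ISG15, 11.3% for IRF1 and 2.90% for BST2. ISG15 was both widespread and uneven. It had a UMI in 78.0% (76.5 to 79.5) of thinned IL1β + TNFα cells, while the variance of its thinned count was 44.2 times the mean, against 1.13 for ADAR and 1.36 for IRF1, where counting alone gives 1.

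**Figure D3:**
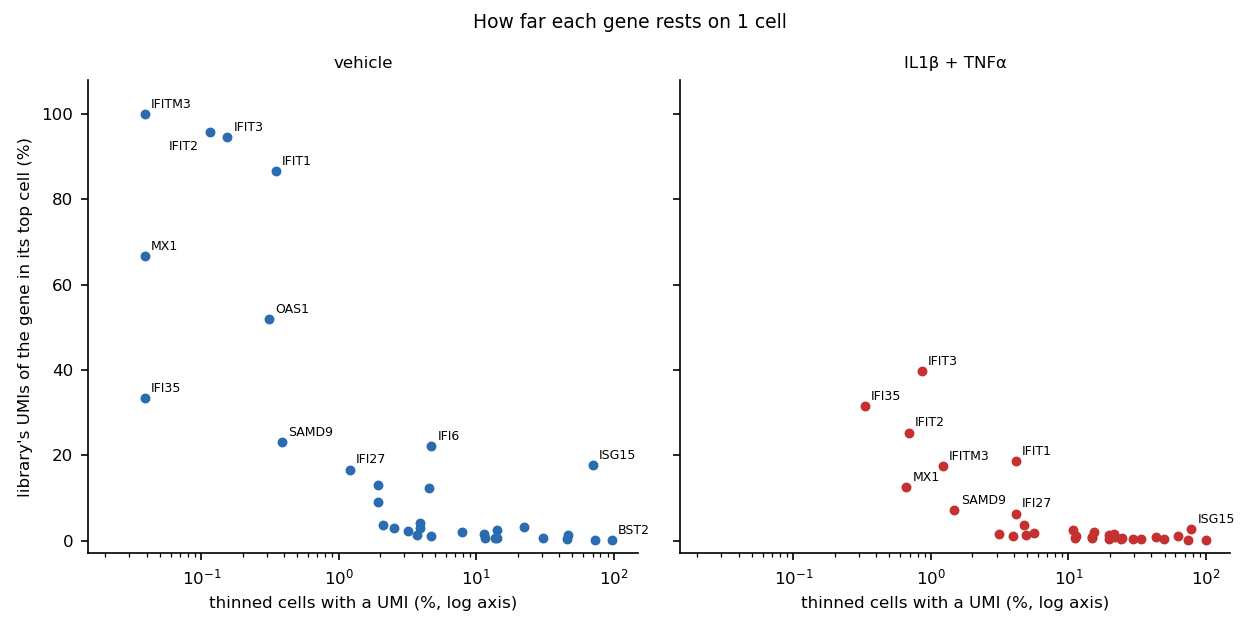
Share of a library's UMIs of a gene that its top cell held (vertical axis, percent) against the share of thinned cells with a UMI (horizontal log axis, percent), 1 point per gene. In the vehicle library (left) IFITM3, IFIT2, IFIT3 and IFIT1 lie at 86.6% or more, and in the IL1β + TNFα library (right) IFIT3 is the highest at 39.7%.

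Summed over IFIT1, IFIT2 and IFIT3, the vehicle library held 320 UMIs in 27 cells. One cell held 294 of them and each of the other 26 held 1. The IL1β + TNFα library held 850 UMIs in 188 cells, of which 24 had 5 or more. The top pair of cells there held 196 and 158 UMIs, or 41.6% of the library, and the next held 23. The 24 cells were all called G1, and 22 of them lay in cluster 1. So both libraries contained cells with over 100 IFIT UMIs, 1 under vehicle and 2 under IL1β + TNFα, and the IL1β + TNFα library alone held cells with 2 to 23.

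The 56 IL1β + TNFα cells with 15 or more of the genes were compared with the other 2977 thinned cells for genes that did not enter the choice, by CPM of the thinned counts. Their median depth was 21169.5 UMIs against 21735 and their median mitochondrial share 6.77% against 6.45%, 94.6% against 88.4% were in G1, and 76.8% against 22.0% lay in cluster 1. USP18 was 4.78-fold higher in them (117 against 24.4 CPM, log2 ratio 2.26, 1.94 to 2.56). Between the whole libraries USP18 went the other way, at 33.9 CPM under vehicle and 26.1 CPM under IL1β + TNFα (-0.38, -0.47 to -0.28). Of the wider list 55 genes were measured, with 34 higher by at least 2-fold in these 56 cells and 0 lower, with a median log2 ratio of 1.68. Over all 8938 measured genes 2.56% were higher and 0.985% lower, with a median of 0.01. Measured here meant 5 CPM in either group of cells, and most of the 34 passed through the 56 cells alone. Among these were OASL, RSAD2 and HERC5, at 2.75, 0.09 and 0.11 CPM in the other cells. The count of 34 and the median of 1.68 thus rest in large part on genes admitted by the group where they are high. The share with the limit set in the other cells was not computed. OASL was 56.6-fold higher (156 against 2.75 CPM), CXCL10, a chemokine for T cells, 25.1-fold (156 against 6.203 CPM), and PLSCR1, a membrane scramblase, 12.4-fold (92.9 against 7.48 CPM). RSAD2 had 14 UMIs in the 56 cells and 4 in the 2977, and HERC5, the ligase of ISG15, 28 and 5. Others of the list stood near the level of the other cells, among them LY6E (0.88-fold), IFI27L2 (0.95-fold), GSDMD (1.11-fold) and GBP2 (1.52-fold, with an interval that spanned 0 on the log2 scale). CCL5 was added after its values were seen and was 94.1-fold higher (230 against 2.44 CPM). KRT17, added in the same way, had 9 UMIs in the 56 cells and 4 in the 2977.

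The genes of antigen presentation and NF-κB named here differed less between these cells than OASL, CXCL10 and PLSCR1. The median log2 ratio of 1.68 of the wider list includes genes that passed the limit through the 56 cells alone. Beside it, TAP1 stood at 1.80, PSMB9 at 1.63 and B2M at 0.90. TAP1, a peptide transporter, was 3.49-fold higher in the 56 cells (66.7 against 19.1 CPM), PSMB9, an immunoproteasome subunit, 3.09-fold (41.7 against 13.5 CPM), and B2M 1.86-fold (2974 against 1595 CPM). Of the 7 NF-κB targets used as a reference, NFKBIA (0.86-fold), NFKB2 (0.82-fold) and RELB (0.91-fold) were near the level of the other cells, and TNFAIP3 (1.99-fold), BIRC3 (1.89-fold), SOD2 (1.88-fold) and ICAM1 (1.74-fold) stood above it. TDO2, the enzyme the study turns on, was at 506 against 535 CPM (log2 ratio -0.08, -0.22 to 0.06). JAK1 (log2 ratio 0.19, -0.27 to 0.61), IFNGR1 (-0.12, -0.56 to 0.29) and SOCS1 (-0.01, -1.34 to 1.05) had intervals that spanned 0. Among markers of the line KRT8 stood at 1.03-fold, GATA3 at 1.03-fold, ERBB2 at 1.01-fold and FGFR4 at 0.88-fold.

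**Figure D4:**
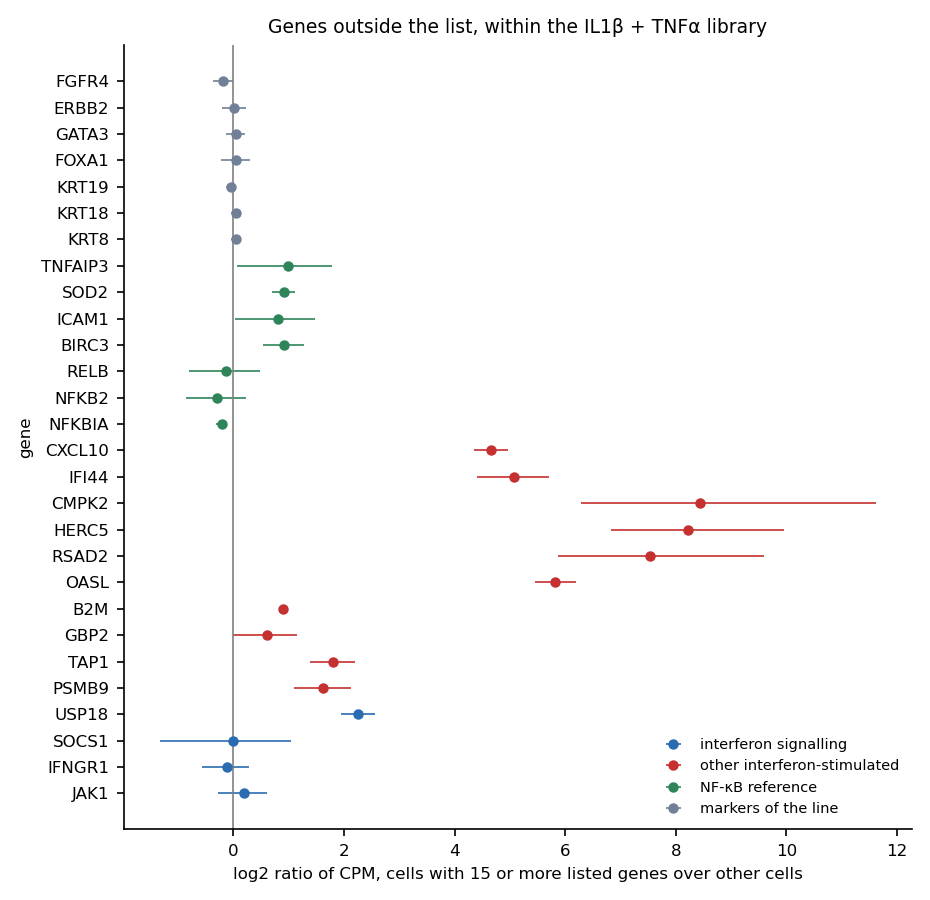
Log2 ratio of CPM between the 56 IL1β + TNFα cells with 15 or more of the 33 genes and the other 2977 cells, for genes outside the list, with exact 95% intervals. USP18 lies at 2.26 and OASL at 5.82, while NFKBIA lies at -0.22 and the grey markers of the line lie near 0.

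Without cells with 15 or more of the genes, 10 of 21 measured genes were higher (4.22% of all), with a median log2 ratio of 0.96. ISG15 was then at 97.7 CPM under vehicle and 191 CPM in the IL1β + TNFα library (log2 ratio 0.96, 0.92 to 1.01), just under the 2-fold limit. IFIT1 was at 0.273 and 2.40 CPM (3.13, 2.39 to 3.97), and so was no longer measured. IFIT3 had 7 and 17 UMIs left, and its interval spanned 0 (1.06, -0.29 to 2.57). By contrast IRF1 (3.94), UBE2L6 (3.46), IRF9 (3.26) and BST2 (1.14) stood as they did in all cells, which places their difference outside the cells of the tail.

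By the deposited clusters, which were computed on both libraries together from genes that can include these, 22 of the 33 genes were highest in cluster 1 in the IL1β + TNFα library and 19 in the vehicle library. Of all genes with a UMI 11.7% and 15.2% were highest there. Cluster 1 held 728 IL1β + TNFα cells and 43 of the 56 cells of the tail. IFIT3 was 43.0-fold higher in its cells than in other IL1β + TNFα cells (8.81 CPM in cluster 1), IFIT1 12.5-fold (30.3 CPM), IFITM3 8.21-fold, IFI27 6.196-fold, OAS1 3.71-fold, ISG15 2.84-fold, IFI6 2.73-fold and BST2 1.02-fold. Without the cells of the tail, IFIT1 in cluster 1 went from 30.3 to 3.68 CPM and ISG15 from 514 to 254 CPM. The genes highest in cluster 1 then went from 22 to 11 of 33, against 11.6% of all genes. In the vehicle library, without the 1 cell, IFIT1 in cluster 1 went from 9.46 to 0.603 CPM, and the genes highest there went from 19 to 11 of 33, against 14.98% of all genes.

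By phase, 7 of 20 measured genes were higher in S cells (3.22% of all genes), 8 of 20 in S cells without the 1 vehicle cell (3.24%) and 11 of 20 in G2M cells (3.7%). OAS3 stood at 4.54 CPM in G1, 10.97 CPM in S and 8.57 CPM in G2M cells of the vehicle library, and at 11.9, 21.9 and 48.3 CPM in those of the IL1β + TNFα library. Its log2 ratio was 1.39 (1.07 to 1.72) in G1, 0.997 (0.71 to 1.28) in S and 2.50 (1.93 to 3.04) in G2M, although it was 0.68 over all cells. Each phase thus gave a larger ratio than the pooled sum, in which the IL1β + TNFα library has more G1 cells and G1 is where OAS3 is lowest. IRF1 was higher in all phases, with log2 ratios of 4.24 in G1, 3.32 in S and 4.50 in G2M, and so was UBE2L6 with 3.44, 3.34 and 4.81. BST2 gave 0.98, 0.98 and 0.999 against 1.16 over all cells, and so was just short of 2-fold in each phase. The G2M values rest on 40 IL1β + TNFα cells.

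For IFIT1 and ISG15 the S value moved with 1 cell. IFIT1 had a log2 ratio of 5.01 (3.88 to 6.46) in G1, with 6 and 593 UMIs, and of -0.82 (-1.68 to -0.05) in S, with 107 and 16 UMIs. Without the vehicle cell with 32 genes, which was called S phase, the S value was 3.92 (2.29 to 5.96), with 4 and 16 UMIs. ISG15 in S went from 0.14 (0.04 to 0.23) to 0.66 (0.56 to 0.76) in the same way. Of IFIT3, 150 of 151 UMIs in the IL1β + TNFα library were in G1 cells and 0 in S cells. Its top cell held 60 of them and the next 34, and 32 cells had any. G1 cells were 88.5% of that library, so this split rests on the phase calls of few cells.

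**Figure D5:**
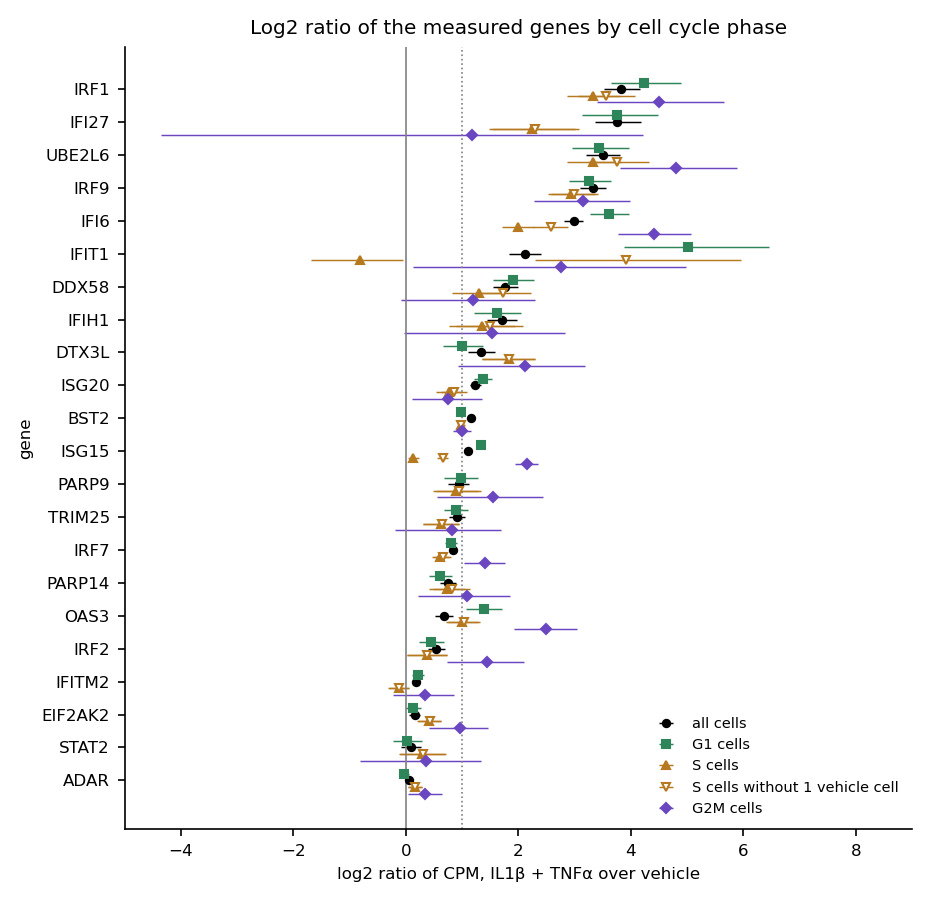
Log2 ratio of CPM, IL1β + TNFα over vehicle, for the 22 measured genes in all cells and in G1, S and G2M cells, with exact 95% intervals, where open triangles leave out 1 vehicle cell. IFIT1 in S cells moves from -0.82 to 3.92 without that cell, and the dotted line marks a 2-fold difference.

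Correlations across cells, which share a library and its depth, are given as descriptions. Over the 10 genes at 20 CPM or more in the IL1β + TNFα library, 45 pairs had a median Pearson r of 0.10 across 3163 cells, and the highest was 0.63, between ISG15 and IFI6. Over the 6 such genes in the vehicle library, 15 pairs had a median r of 0.01 across 2822 cells and a highest of 0.13. IFIT2 and IFIT3, picked after their values were seen, had r of 0.95 in the vehicle library, which became -0.00 without the 1 cell. In the IL1β + TNFα library their r was 0.74, and 0.32 without the cells with 15 or more genes. ISG15 and IFI6 kept r of 0.52 without those cells, so this pair varied together outside the tail as well.

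Other genes of the pathway were taken from lists, and their counts stand beside the 4.29% higher and 7.48% lower of all measured genes. Of 5 measured receptor chains 1 was higher. IFNGR1, a chain of the interferon gamma receptor, was at 9.18 CPM under vehicle and 63.5 CPM in the IL1β + TNFα library, a log2 ratio of 2.79 (2.66 to 2.92). Of 4 measured JAK and STAT genes 0 were at least 2-fold higher or lower. Among them JAK1, a kinase of both receptor types, was at 28.0 and 46.2 CPM (0.72, 0.64 to 0.81).

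Of 7 measured genes that sense nucleic acid or lead from sensing to interferon, 2 were higher. IKBKE, a kinase that phosphorylates IRF3, was at 12.6 and 31.7 CPM (log2 ratio 1.33, 1.21 to 1.45), and TRAF3, an adaptor ligase, at 10.1 and 25.02 CPM (1.31, 1.18 to 1.45). TICAM1, the adaptor of TLR3, was at 7.56 and 14.6 CPM (0.95, 0.79 to 1.11), and CGAS, the sensor of DNA in the cytoplasm, at 7.92 and 4.61 CPM (-0.78, -0.99 to -0.57). Of 8 measured genes that damp the response, 1 was higher, SOCS1, an inhibitor of JAK kinases, at 4.05 and 8.52 CPM (1.07, 0.86 to 1.30). SOCS1 thus passed the limit of 5 CPM through the IL1β + TNFα library alone. PTPN6, a phosphatase of signalling receptors, was at 6.78 and 11.9 CPM (0.82, 0.64 to 0.99) and USP24 at 9.20 and 6.15 CPM (-0.58, -0.77 to -0.40).

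Of 38 other measured interferon-stimulated genes, 15 were higher and 0 lower, and 28 had a log2 ratio above 0, with a median of 0.59. Of the 15, CXCL10, PSMB9, GBP2, TAP1, PSMB8, OASL, NMI, PARP10 and PARP12 were under 5 CPM under vehicle. They passed the limit through the IL1β + TNFα library alone. The largest differences were those of CXCL10 (0 UMIs against 9.10 CPM, at least 178-fold against the floor of 3 UMIs, with an exact lower limit of 144-fold), PSMB9 (0.97 against 13.4 CPM), GBP2, a guanylate-binding protein (2.29 against 21.5 CPM), and TAP1 (3.28 against 20.2 CPM). They were followed by TNFSF10 (TRAIL) at 7.90 and 34.2 CPM, PSMB8 at 4.76 and 17.2 CPM, PSME1 at 119 and 380 CPM and B2M at 572 and 1628 CPM. PSMB9, TAP1, PSMB8, PSME1 and B2M all act in the making or display of peptides on class I molecules. At the other end were NT5C3A (22.5 against 14.6 CPM), RIPK1 (7.03 against 4.90 CPM), LY6E (753 against 526 CPM) and TENT5A (14.4 against 11.8 CPM). OASL, at 2.12 and 5.26 CPM, rests on the same vehicle cell, which held 119 of its 124 vehicle UMIs. All 7 NF-κB reference genes were higher, but RELB, NFKB2, TNFAIP3, BIRC3 and ICAM1 were under 5 CPM under vehicle and passed the limit in the same way.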

How the data were processed

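Single-cell 3′ libraries (10x Genomics) of 1 vehicle and 1 IL1β + TNFα culture were used, with groups taken from the sample labels and cells assigned to libraries by the sample column of the cell table. The authors counted UMIs against GRCh38 using Cell Ranger 3.1.0, which counts reads on the strand of the gene, and the deposited counts are not normalized. By the account in the paper, cells outside limits on UMIs, genes and mitochondrial share and genes seen in few cells were removed in Seurat 4.0.4, so cells with very much or very little RNA cannot be seen here. The authors also deposited a percent of mitochondrial UMIs, a phase call and a cluster number for each cell. The settings of the clustering are not given in the sources used here.

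CPM is the sum of a gene's UMIs over a library per 1000000 UMIs of that library. Levels were given exact 95% Poisson intervals, ratios exact conditional binomial intervals, and shares of cells exact Clopper-Pearson intervals. Intervals for levels and ratios do not cover the spread between cells or cultures. Members and gene lists were chosen with earlier results of these data known, and no list is independent evidence. Named genes were every member, pathway genes that differed at least 1.5-fold, JAK1, IFNB1 and IFNG, and the 8 largest and 4 smallest ratios among other measured interferon-stimulated genes, and some genes named by this rule are not reported here. Thinning drew 15000 UMIs per cell without replacement and left out 236 vehicle and 130 IL1β + TNFα cells. Correlations used ln(1 + 10000 × the fraction of the UMIs of a cell). Alternatives were TMM (edgeR 4.0.16) and median of ratios (DESeq2 1.42.0) scaling, other totals, limits, depths and subsets of cells. The calls were tested on library sums simulated with counting error alone, which cannot show how they hold under spread between cells or cultures. Python 3.11.15, numpy 2.4.6, scipy 1.17.1 and pandas 2.3.3 were used. Gene positions are from GENCODE on GRCh38, and promoters from RefSeq (GRCh38.p14).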

Additional observations from a re-analysis of the deposited data

How the results depend on the processing

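The count of genes at least 2-fold higher (12 of 22) was 15 of 22 under TMM or median of ratios scaling. It stayed 12 of 22 with means of per-cell CPM, in G1 cells, in cells under 10% mitochondrial UMIs and without the cell with the most members in each library. It was 13 of 24 with totals without ribosomal and mitochondrial genes, 11 of 20 in G2M cells and 10 of 21 without cells with 15 or more members. With a limit of 1 CPM it was 15 of 31, and with a limit of 20 CPM 6 of 10. Shares over all genes at these 2 limits were not computed. It was 4 of 14 with the limit of 5 CPM set in the vehicle library, 7 of 20 in S cells and 8 of 20 in S cells without the vehicle cell with the most members. The count of lower genes was 0 under each. The median log2 ratio (1.14) was 1.31 under TMM scaling, 1.33 under median of ratios scaling, 1.08 with totals without ribosomal and mitochondrial genes, 1.17 in G1 cells and 0.94 with a limit of 1 CPM. It was 1.22 without the cell with the most members in each library and 0.96 without cells with 15 or more members. The log2 ratio of the summed level (1.03) was 0.94 without BST2, the most abundant member, 0.97 with totals without ribosomal and mitochondrial genes, 1.01 in G1 cells, 1.08 without the cell with the most members in each library and 0.96 without cells with 15 or more members. The median number of genes per cell (5 and 7) was 3 and 4 after thinning to 7500 UMIs, 6 and 8 without thinning, 2 and 3 when 2 UMIs were required, and 5 and 7 in G1 cells. The count of genes highest in cluster 1 was 11 in place of 19 in the vehicle library without the 1 cell, and 11 in place of 22 in the IL1β + TNFα library without cells with 15 or more members. Leaving out single cells or the cells with 15 or more members, S or G2M cells alone and the limit in the vehicle library were alternatives chosen after seeing the data.

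Each of the 12 higher genes kept its direction under every alternative tried on its own ratio over all phases or in G1 cells, but IFIT1 was at -0.82 in S cells with the 1 vehicle cell. BST2 was below 2-fold in G1 cells and ISG15 without cells with 15 or more members, and ADAR had a log2 ratio of -0.03 in G1 cells. No paired analysis was possible because each condition was 1 library. For genes under about 1 CPM, such as MX1, IFI35 and SAMD9, the ratio rests on few UMIs, and shares of cells at this depth miss cells with few transcripts.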
